A study of Rattus norvegicus with 4 samples.

Results

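Cytosolic ribosomal protein genes were taken from 4 Visium sections of rat kidney by symbol. A feature was a member when its symbol began with Rpl or Rps and a digit, or was Rplp0, Rplp2 or Rpsa, without the copies whose names carry -ps and without the S6 kinases. This gave 104 of the 32402 features, under 89 symbols. One of them, Rps19bp1, meets the symbol rule but encodes a binding partner of the ribosomal protein S19, not a ribosomal protein. The kidneys came from Sprague-Dawley rats, 1 section of 10 µm per group. The PAN animal, fed freely, received puromycin aminonucleoside, which damages podocytes, and its kidney was taken 5 months after the injection. The PAN_LS-FMD animal had the same injection, then a fasting-mimicking diet low in salt (LS-FMD) for 6 cycles. Both injected animals were taken 6 weeks after the treatment period. The healthy animal was untreated, and the healthy_LS-FMD animal was uninjected and was taken after 1 diet cycle and 72 h of refeeding.

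The ribosome that works in the cytosol is built from RNA and proteins of a large (Rpl) and a small (Rps) subunit, and its messages are among the most abundant of any cell. Most of these messages begin with a C followed by a run of pyrimidines, the 5′ terminal oligopyrimidine (TOP) tract, through which their translation responds together to the nutrient-sensing kinase mTORC1. RNA counts as used here show the amount of message and not how much of it was translated.

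The tract was looked for in RefSeq start windows of the rat assembly GRCr8, which matched 66 of the 89 member symbols by name (67 windows). In 21 of the 67 windows (31.3%) the annotated first base was C and opened a run of at least 5 letters C or T on the gene's own strand, against 2.63% of all 33469 windows in the same table. Allowing the run to open with a C up to 10 bases to either side of the annotated start gave 70.1% of member windows and 28.9% of all windows. The windows below run from 20 bases before to 20 bases from the start, 5′ to 3′ on the gene's strand, with the run in capitals where one opens with C at the start. The first 6 are members with a run, chosen because they include runs of the greatest length found (12 bases, also in Rpl31) and members whose levels are described below, and the last 5 are members described below with a short run or none.
Rpl10 (chrX:157205830-157205869, plus strand): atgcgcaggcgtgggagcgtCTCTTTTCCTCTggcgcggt
Rpl37a (chr9:81748071-81748110, plus strand): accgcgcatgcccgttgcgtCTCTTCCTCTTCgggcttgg
Rps27 (chr2:177964587-177964626, minus strand): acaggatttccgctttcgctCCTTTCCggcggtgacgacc
Rpl10a (chr20:6390513-6390552, plus strand): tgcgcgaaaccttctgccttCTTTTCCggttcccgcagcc
Rpl34 (chr2:221962264-221962303, minus strand): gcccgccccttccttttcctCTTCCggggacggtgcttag
Rplp0 (chr12:46718371-46718410, minus strand): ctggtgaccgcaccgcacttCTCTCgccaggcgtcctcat
Rps4x (chrX:71342902-71342941, minus strand): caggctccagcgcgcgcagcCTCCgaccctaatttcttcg
Rpsa (chr8:128728859-128728898, plus strand): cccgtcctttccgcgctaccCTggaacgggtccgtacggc
Rpl41 (chr7:1563478-1563517, minus strand): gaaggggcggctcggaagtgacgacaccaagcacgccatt
Rpl22l1 (chr2:113683176-113683215, plus strand): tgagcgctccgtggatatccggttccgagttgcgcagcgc
Rps19bp1 (chr7:113693004-113693043, minus strand): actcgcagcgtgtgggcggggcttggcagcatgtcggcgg
The letters come from 1 annotated start per window and say nothing of the start used in these kidneys.

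The sections held between 24924170 and 58568499 UMIs (molecular tags that mark single captured RNA molecules) in 2187 to 2866 spots of at least 500 UMIs, with medians of 8482 to 19531 UMIs per spot. A spot is a small region that can hold several cells, and for all values below fewer cells of a type and less RNA per cell cannot be told apart. Spots were placed in cortex, outer stripe or medulla by markers of the tubule segments, with the members left out of the clustering. Clusters led by haemoglobin genes were called blood-rich, and clusters in which injury or matrix genes outscored every zone list had no zone. The injury gene Spp1 stood at 17165 UMIs per 1000000 UMIs of the section (CPM) in the PAN section against 332 in healthy, 225 in PAN_LS-FMD and 1292 in healthy_LS-FMD. The healthy section was counted with Space Ranger 2.0.1 and the others with 1.2.1, so each comparison with healthy carries that difference and its part was not tested. Each group is a single section, so nothing was replicated and no test between groups was made. The intervals are exact 95% intervals of counting error, and whether a difference exceeds that between animals cannot be seen.

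Of the 104 members, 76 had 800 UMIs or more over the 4 sections, 10 had at least 20 but fewer than 800, 9 had 1 to 19 and 9 were at 0 in every section. At least 200 UMIs in each section were counted for 75 members, which are those whose folds are compared below. The 5 members with the most UMIs were Rpl41, the smallest protein of the large subunit, Rps29, Rpl37a, Rpl35 and Rps27, and they held 20.8% of all member UMIs. Rplp0, which anchors the stalk of the large subunit, had 169027 UMIs, while Rplp2, another stalk protein, had 91. Rps6, the small-subunit protein phosphorylated by S6 kinase, had 39 and Rpl8 had 3, and Rpl38, Rpl35a and both identifiers of Rpl7a were at 0. These are genes that every cell uses, so their low values are listed only. There were 10 symbols with more than 1 identifier, 25 identifiers in all, and reads of near-identical copies may have been split or left out in the counting. Values of members with such copies are uncertain for that reason.

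The members together took the largest share of UMIs in the PAN section and the smallest in healthy_LS-FMD. Their share was 6.45% in PAN (6.44 to 6.46), 5.51% in healthy (5.50 to 5.51), 4.99% in PAN_LS-FMD (4.98 to 5.00) and 4.08% in healthy_LS-FMD (4.07 to 4.09). Both sections after the diet lay below the section without it. Over single spots the share ran from 3.81 to 11.5% in PAN with a median of 6.24%, and from 3.34 to 8.93% in healthy with a median of 5.48%. It ran from 3.38 to 7.57% in PAN_LS-FMD (median 4.85%) and from 1.74 to 8.92% in healthy_LS-FMD (median 3.94%), so the spots of all sections overlapped. Large-subunit members held 3.67% and small-subunit members 2.78% of UMIs in PAN, a ratio of 1.318. That ratio was 1.379 in healthy, 1.392 in PAN_LS-FMD and 1.395 in healthy_LS-FMD.

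Within sections the cortex had the lowest share outside PAN. In healthy it was 4.92% in cortex, 5.85% in outer stripe and 5.84% in medulla. PAN_LS-FMD had 4.54, 5.35 and 5.20% in the same zones, and healthy_LS-FMD had 3.60, 4.22 and 4.15%. The outer stripe thus stood 1.19-fold (1.19 to 1.19), 1.18-fold (1.17 to 1.18) and 1.17-fold (1.17 to 1.18) above the cortex in these 3 sections. Median depths of their cortical clusters were 14398 to 19313, 11370 to 14423 and 5681 to 10063 UMIs per spot. Those of their outer stripe clusters were higher, at 22113 to 25492, 19009 to 21591 and 10211 to 15201. Over spots the Spearman correlation between share and depth was 0.22, 0.47 and 0.51, and the part of depth in the zone values was not tested. In PAN the zones were nearly level, at 6.28% in cortex, 6.25% in outer stripe and 6.14% in medulla, and the ratio of outer stripe to cortex was 0.994 (0.990 to 0.998). The 288 PAN spots without a zone, led by Car3, Postn and Ankrd1, had the highest share of any region, 7.89% (7.86 to 7.93). The 150 blood-rich PAN spots, in which the smooth muscle gene Actg2 stood beside haemoglobin genes among the leading genes, had 7.65%. The 79 healthy spots without a zone, led by Myh11, Ccl21 and Ighm, had 5.95%, also above the zones of their section. Among PAN clusters the lowest share was that of the S3 cluster led by Slc7a13 (5.83%), whose median depth of 11640 UMIs per spot was the highest of that section.

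**Figure D1:**
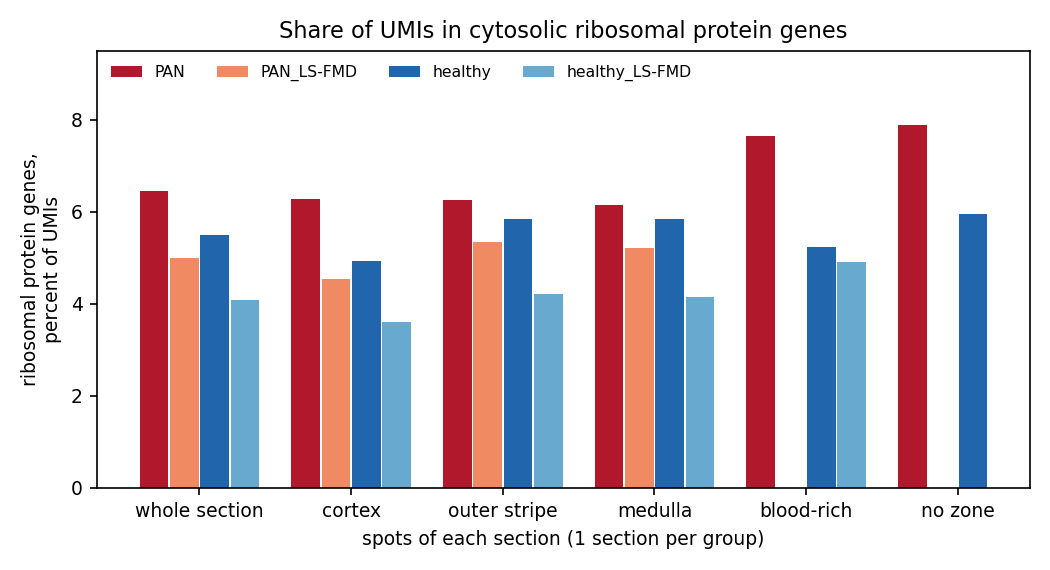
Bars give the percent of UMIs counted in the 104 cytosolic ribosomal protein genes, for all spots of each section and for its zones, with 1 section per group and counting intervals too small to draw. PAN stands highest in every group of spots shown, at 6.28% in cortex against 4.92% in healthy, and healthy_LS-FMD stands lowest, at 3.60% in cortex.

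The first comparison, PAN against healthy, asks what differed in a kidney examined months after the toxin. The member share was 1.17-fold higher in PAN (1.17 to 1.18), which was 0.23 on the log2 scale. The difference was 1.28-fold in cortex (1.27 to 1.28), 1.07-fold in outer stripe (1.07 to 1.07) and 1.05-fold in medulla (1.05 to 1.06), so of the 3 zones it was largest in cortex. Of 83 members with at least 20 UMIs over both sections, 13 were 1.5-fold or more higher and 2 lower. Among all tested features 44.3% were higher and 9.85% lower. The median log2 fold was 0.27 for the members and 0.51 for all tested features. Members were therefore a larger share of UMIs in PAN but lay below the median feature by fold, and with size factors by median of ratios the log2 ratio of their sum was -0.28, the opposite direction. Beside it, all 10 measured matrix and fibroblast genes and all 8 macrophage genes were called higher in PAN, and their part in the member values was not tested. Values of B and plasma cell genes are given with the injury level below.

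Of the 75 members, 6 departed from the common shift, that is by 1.5-fold or more from the median fold of members, against 38.0% of all genes around their own median. One of the 4 identifiers of Rpl21 (ENSRNOG00000032803) stood furthest above it, at 159 CPM in PAN, 51.7 in healthy, 84.1 in PAN_LS-FMD and 110.3 in healthy_LS-FMD. PAN over healthy was 3.08-fold for it (2.94 to 3.23). The main Rpl21 identifier (ENSRNOG00000000957) stood at 466, 401, 389 and 305 CPM in the same order, so only the minor copy was apart from the other members. Rpl10a, of the large subunit, stood at 471 CPM in PAN and at 253, 270.3 and 276 CPM in healthy, PAN_LS-FMD and healthy_LS-FMD, 1.86-fold higher in PAN than in healthy (1.82 to 1.91). Its level in the other 3 sections lay between 253 and 276 CPM. Next came Rpl32 (1.81-fold), Rpl35al1 (1.68-fold) and Rpl13a (1.66-fold) of the large subunit and Rps10 (1.66-fold) of the small subunit. All of these were under the limit for a departure.

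The departures on the low side were Rpl22l1, Rpl34, Rps4y2 and Rps19bp1. Rpl22l1, a paralogue of the large-subunit gene Rpl22, stood at 197 CPM in PAN and at 279 in healthy, 253 in PAN_LS-FMD and 207 in healthy_LS-FMD. It was 0.708-fold in PAN relative to healthy (0.686 to 0.731), and its departure on the log2 scale was -0.76 in cortex, -0.80 in outer stripe and -0.65 in medulla. Rps19bp1 had 91.5 CPM in PAN and 129.5, 121 and 109 CPM in healthy, PAN_LS-FMD and healthy_LS-FMD, and its departures were -0.75, -0.69 and -0.69 in the same zones. Over whole sections PAN was lowest for both genes, while within cortex healthy_LS-FMD was lower still for both. Within medulla healthy_LS-FMD was also lower than PAN for Rpl22l1 (180.0 against 185.2 CPM). Rpl34 stood at 699 CPM in PAN against 948 in healthy, while its copy Rpl34-ps1, outside the symbol rule, stood at 218 against 178. Rps4y2 had 11.9 CPM in PAN (297 UMIs) against 22.7 in healthy, a fold of 0.526 (0.462 to 0.597). Rps4x, its more abundant relative in the small subunit, had 646 against 790 CPM and fell just short of a departure, at -0.57 on the log2 scale. In cortical spots alone, Rpl21, Rpl22l1 and Rps19bp1 were the departures left. Rps4y2 had too few UMIs there to be counted, with 11.4 CPM in PAN cortex against 20.4 in healthy cortex.

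**Figure D2:**
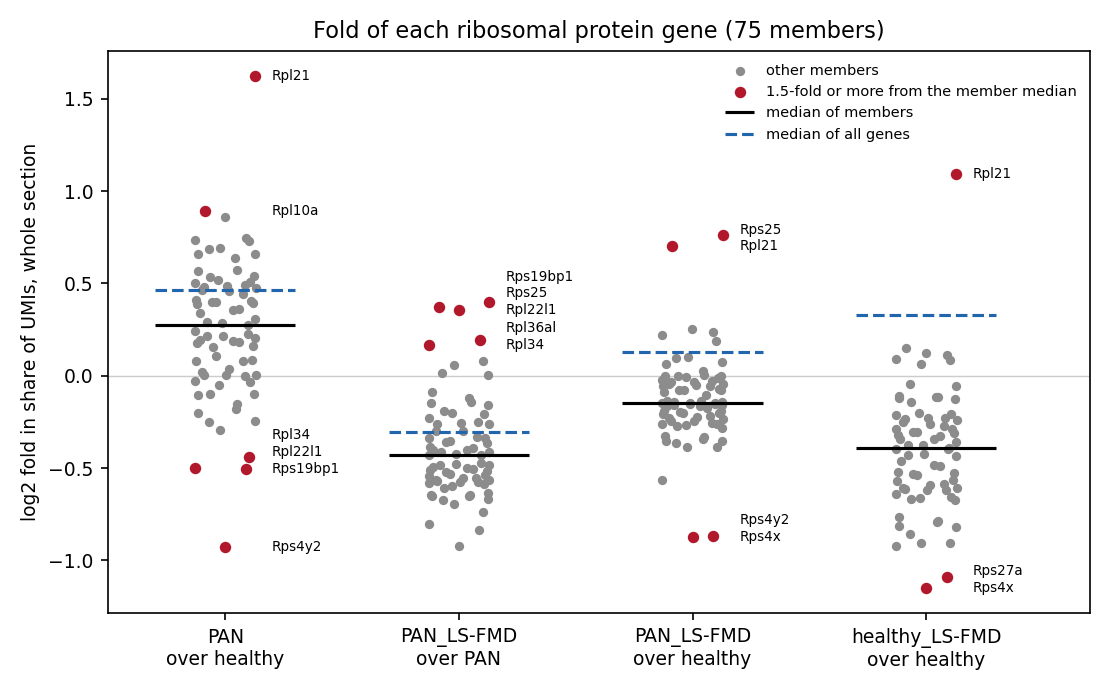
Each point is 1 of the 75 members with at least 200 UMIs in each section, and the y axis is its log2 fold in share of UMIs over all spots for the 4 comparisons. Black lines mark the median of the members (0.27, -0.43, -0.15 and -0.39), dashed lines that of all genes with at least 200 UMIs in both sections (0.46, -0.30, 0.13 and 0.33), and named points lie 1.5-fold or more from the member median.

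The comparison of PAN_LS-FMD with PAN asks how the injected kidney differed after the diet cycles. The member share was 0.773-fold (0.771 to 0.775), lower in PAN_LS-FMD in cortex (0.722-fold), outer stripe (0.856-fold) and medulla (0.847-fold). None of 80 measured members was called higher and 16 were called lower, against 9.67% and 35.5% of all features. The median log2 fold was -0.43 for the members and -0.37 for all tested features. Over whole sections the member median thus lay close to that of all features. In cortex the medians were -0.54 for members and -0.19 for all features, in outer stripe -0.27 and -0.46, and in medulla -0.31 and -0.42. Members thus lay below all features in cortex and above them in the other zones. Although the member share was lower, by median of ratios the log2 ratio of the member sum was 0.01, on the other side of 0. All 10 matrix and fibroblast genes and all 8 macrophage genes were called lower in PAN_LS-FMD, and their part was not tested.

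In this comparison 5 members departed from the common shift, all upward, against 32.1% of all genes. They were Rps19bp1, Rps25, Rpl22l1, Rpl36al and Rpl34. Rpl22l1 was 1.28-fold higher in PAN_LS-FMD than in PAN (1.24 to 1.33) and Rps19bp1 1.32-fold (1.25 to 1.39), on the background of a lower member median. Over whole sections both had stood lowest in PAN, and as the PAN section enters both comparisons, these 2 departures share its values. The same holds for Rpl34, which had departed downward in PAN over healthy. Its departure here was 0.60 over the section and 0.30 in cortex. Rps25, a small-subunit protein used by some viral and cellular messages for internal initiation, stood at 154 CPM in PAN_LS-FMD against 119 in PAN, 90.8 in healthy and 64.9 in healthy_LS-FMD. Its departure was 0.42 in cortex, 0.96 in outer stripe and 0.90 in medulla, so it was smallest in cortex. Rpl36al, a paralogue of Rpl36a, stood at 498 CPM in PAN_LS-FMD, 435 in PAN, 517 in healthy and 417 in healthy_LS-FMD. The lowest folds were those of the minor Rpl21 identifier (0.529), of Rpl3, a core protein at the peptidyl transferase centre (0.561, 376 against 669 CPM), of Rpl10a (0.574), of Rpl13a (0.600) and of the second Rpl32 identifier (0.619, 35.4 against 57.1 CPM).

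The comparison of PAN_LS-FMD with healthy sets the injected kidney after the diet beside the untreated one. The member share was 0.906-fold that of healthy (0.905 to 0.908), with 0.923 in cortex, 0.915 in outer stripe and 0.892 in medulla. Of 83 members 2 were called higher and 3 lower, against 6.80% and 4.53% of all features, with medians of -0.15 for members and 0.11 for all features on the log2 scale. The middle 50% of member log2 folds spanned 0.21, the narrowest of the 4 comparisons, beside 0.30 for all genes. From the common shift 4 members departed, against 4.93% of all genes. Rps25 (1.70-fold, 1.64 to 1.77) and the minor Rpl21 identifier (1.63-fold, 1.55 to 1.71) stood above, and Rps4x (0.546-fold, 0.536 to 0.556) and Rps4y2 (0.548-fold, 0.490 to 0.611) below. Rps10 (1.19-fold from 28.0 against 23.5 CPM), Rpl35al1 (1.18-fold) and Rpl19 (1.17-fold) were the next above, and Rpl12 (0.675-fold), Rps27a (0.766-fold) and Rps14 (0.767-fold) the next below.

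The comparison of healthy_LS-FMD with healthy asks what 1 cycle of the diet with refeeding left in an uninjected kidney. The member share was 0.741-fold (0.740 to 0.743), with 0.732 in cortex, 0.723 in outer stripe and 0.710 in medulla. Of 83 members 1 was called higher and 26 lower, against 27.1% and 5.27% of all features. Of the cell type markers, 7 of 10 proximal S1 and S2 genes and 5 of 5 red blood cell genes were called lower and 7 of 7 principal cell genes higher, and medulla made up 34.2% of spots against 18.7%. The share was lower within each zone as well, as given above. The median log2 fold was -0.38 for the members and 0.33 for all tested features, opposite directions, and by median of ratios the log2 ratio of the member sum was -0.78. Here 3 members departed, against 18.6% of all genes. The minor Rpl21 identifier was 2.13-fold higher (2.03 to 2.25), Rps4x 0.452-fold (0.442 to 0.462) and Rps27a 0.470-fold (0.461 to 0.479). In cortical spots alone 9 members departed, among them Rps15a, Rpl12, Rps20, Rpl37 and Rpl6 on the low side. The share of all genes departing in cortex was not computed. The next above the common shift in the whole section were Rps4y2 (1.11-fold), Rpl10a (1.09-fold), Rpl35al1 (1.08-fold) and Rpl26 (1.07-fold). The next below were Rps15a (0.529-fold), Rpl34 (0.533-fold) and Rpl6 (0.535-fold).

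Several of these members have a counted copy outside the symbol rule, and some copies had another order over the sections. Rps27a, which encodes ubiquitin fused to S27a, stood at 918 CPM in PAN, 1039 in healthy, 796 in PAN_LS-FMD and 489 in healthy_LS-FMD. Its copy Rps27a-ps1 stood at 505, 293, 324 and 298 CPM in the same order, highest in PAN where the parent symbol was below healthy. Rpl6 stood at 357 CPM in PAN and 315 in healthy, and Rpl6-ps1 at 182 and 93.6. Rps4x stood at 646, 790, 432 and 357 CPM, and Rps4x-ps9 at 25, 25.3, 14.9 and 17.9. The 23 features with -ps names together held 0.0994% of UMIs in PAN, 0.0649% in healthy, 0.0692% in PAN_LS-FMD and 0.0628% in healthy_LS-FMD. Rps4x was lower, and the minor Rpl21 identifier higher, in each of the 3 sections counted with Space Ranger 1.2.1 than in the healthy section counted with 2.0.1, and group and version cannot be told apart there.

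The members named for their place or their paralogue moved by different amounts. Rplp0 stood at 1545 CPM in PAN, 1201 in healthy, 1077 in PAN_LS-FMD and 888 in healthy_LS-FMD, the order of the summed share. Its folds were 1.29 for PAN over healthy, 0.697 for PAN_LS-FMD over PAN, 0.896 for PAN_LS-FMD over healthy and 0.740 for healthy_LS-FMD over healthy. Rpsa, a small-subunit protein also known as the laminin receptor, had 1674, 1210, 1169 and 1032 CPM in the same order of sections. Rplp2 had 26, 25, 25 and 15 UMIs, too few to compare. Rpl41 stood at 4278, 4433, 3841 and 3066 CPM, so it was not highest in PAN. Rps29 stood at 3673, 3004, 3224 and 2787 CPM, Rpl37a at 1651, 1352, 1225 and 1147, and Rpl35 at 1265, 1406, 1280 and 924.

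Rps27, a zinc-finger protein of the small subunit, stood at 1820 CPM in PAN and at 1168, 1157 and 1060 in healthy, PAN_LS-FMD and healthy_LS-FMD. Its paralogue Rps27l, known as a target of p53, stood at 354, 361, 355 and 279 CPM. Rps27 was thus 1.56-fold higher in PAN than in healthy (1.54 to 1.58), and Rps27l was 0.979-fold (0.955 to 1.00). Rps10 and Rps10l1 stood at 39.0 and 588 CPM in PAN and at 23.5 and 444 CPM in healthy, folds of 1.66 and 1.32. Rpl3, Rpl7, Rpl10 and Rpl39 were well counted at 669, 1347, 896 and 148 CPM in PAN, whereas their paralogues had few UMIs over all 4 sections, 16 for Rpl3l, 27 for Rpl7l1, 8 for Rpl10l and 5 for Rpl39l. Rpl22, Rpl36a and Rplp1 were not analysed here, so the member share does not cover every cytosolic ribosomal protein gene.

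Members with a pyrimidine run at the annotated start and members without one had close medians in the 4 comparisons. A run opened at the annotated start in 31.3% of member windows but within 10 bases of it in 70.1%. The group without a run at the start therefore includes members with a run nearby, and the contrast cannot separate members with and without a tract. Members were grouped by symbol, so the minor Rpl21 identifier took the value of the Rpl21 window. For PAN over healthy the median log2 fold was 0.28 over 20 members with a run and 0.21 over 38 without. It was -0.41 and -0.41 for PAN_LS-FMD over PAN, -0.14 and -0.16 for PAN_LS-FMD over healthy, and -0.48 and -0.40 for healthy_LS-FMD over healthy. Of the departing members with a window, Rpl10a and Rpl34 have a run as printed above and lay on opposite sides of the common shift in PAN over healthy. Rpl22l1 and Rps19bp1, both lowest in PAN over whole sections, have none.

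Within sections, a few members kept a place of their own between medulla and cortex. These were chosen after their values were seen, over the 71 members with at least 200 UMIs in both zones of every section. Rps4x stood above the other members in medulla relative to cortex by 0.41 on the log2 scale in PAN, 0.74 in healthy, 0.60 in PAN_LS-FMD and 0.78 in healthy_LS-FMD. In healthy it had 599 CPM in cortex against 1177 in medulla. Rps7, Rps21, Rpl6, Rps24 and Rpl37 followed by their lowest value over the sections, at 0.36, 0.36, 0.34, 0.31 and 0.31. Their highest values were 0.81, 0.85, 0.63, 0.83 and 0.73, each in healthy_LS-FMD. The medulla of that section held a cluster of 274 spots placed by inner medulla genes. No other section had such a cluster in its medulla, and its part in these values was not tested. On the cortical side Rpsa lay at -0.07, -0.40, -0.54 and -0.50 and Rps27 at -0.14, -0.24, -0.39 and -0.63 in PAN, healthy, PAN_LS-FMD and healthy_LS-FMD. The minor Rpl21 identifier lay at -0.10, -0.64, -0.71 and -0.49. For these 3 cortical members PAN was the section nearest to 0. No member passed 1.5-fold in the same direction in all 4 sections.

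**Figure D3:**
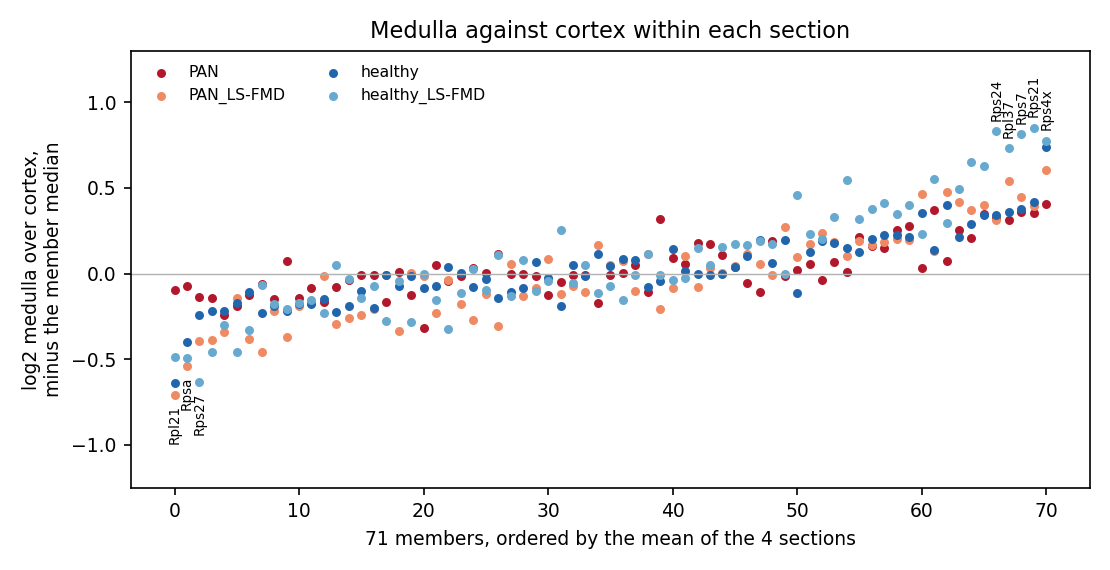
Each column is 1 of 71 members and each point 1 section, and the y axis is the log2 ratio of medulla to cortex minus the median of the members in that section. Rps4x, Rps21, Rps7, Rpl37 and Rps24 lie above 0 in all 4 sections, and Rpl21, Rpsa and Rps27 lie below 0 in all 4, nearest to 0 in PAN.

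In the PAN section the member share was larger in spots with more injury RNA. The injury level of a spot was the mean of log2(UMIs per 10000 + 1) over 18 genes that include Spp1, Havcr1 and Lcn2. The 2724 spots were split by that level into 5 groups of nearly equal size, and from the lowest to the highest group the member share was 5.77, 6.10, 6.28, 6.72 and 7.29%, so each group stood above the one before. Spearman's correlation between share and injury level was 0.42 over these spots, which share 1 library and lie next to each other, so it is a description. Other values differed along these groups of spots. Median depth was 7389 UMIs in the lowest and 9101 in the highest group, Havcr1 stood at 69.4 and 502 CPM, the summed matrix and fibroblast genes at 2473 and 3581 CPM, and spots without a zone made up 1.47% and 31.7%. The summed B and plasma cell genes went the other way, at 2711 and 1890 CPM. In healthy they stood at 41.0 and 132 CPM in its lowest and highest group. In PAN the same correlation was 0.10 between share and depth, 0.34 between share and the matrix level, and -0.01 between share and the B and plasma cell level. Spots without a zone were chosen partly by injury genes, so the relation was also read within zones, which leave them out. Within cortex the share was 5.64% in the lowest and 7.07% in the highest group, with a correlation of 0.44, within outer stripe 5.81 and 6.87%, with a correlation of 0.32, and within medulla 5.71 and 6.59%, with a correlation of 0.31. With the injury genes taken out of the total, the share in PAN ran from 5.86 to 7.53%.

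Over all spots the Spearman correlation was 0.18 in healthy, 0.10 in healthy_LS-FMD and -0.29 in PAN_LS-FMD. Within zones healthy came close to PAN outside the cortex, with 0.11 in cortex, 0.30 in outer stripe and 0.31 in medulla. In healthy_LS-FMD the values were 0.19 in cortex, 0.11 in outer stripe and -0.01 in medulla. With each spot thinned to 3000 UMIs the correlation was 0.32 in PAN, 0.06 in healthy, 0.02 in healthy_LS-FMD and -0.20 in PAN_LS-FMD. Between the lowest and the highest group the share was 5.36 and 5.75% in healthy, 4.04 and 4.22% in healthy_LS-FMD and 5.23 and 4.78% in PAN_LS-FMD. In PAN_LS-FMD cortical spots made up 22.1% of the lowest and 69.4% of the highest group, and within cortex the correlation was -0.08, within outer stripe 0.00 and within medulla -0.04. Median depth there was 18186 UMIs in the lowest and 12471 in the highest group, and the correlation between share and depth was 0.47. The levels of injury RNA differ between sections, with Havcr1 at 502 CPM in the highest PAN group, 18.2 in that of healthy and 18.7 in that of PAN_LS-FMD, so a group does not stand for the same level across sections.

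**Figure D4:**
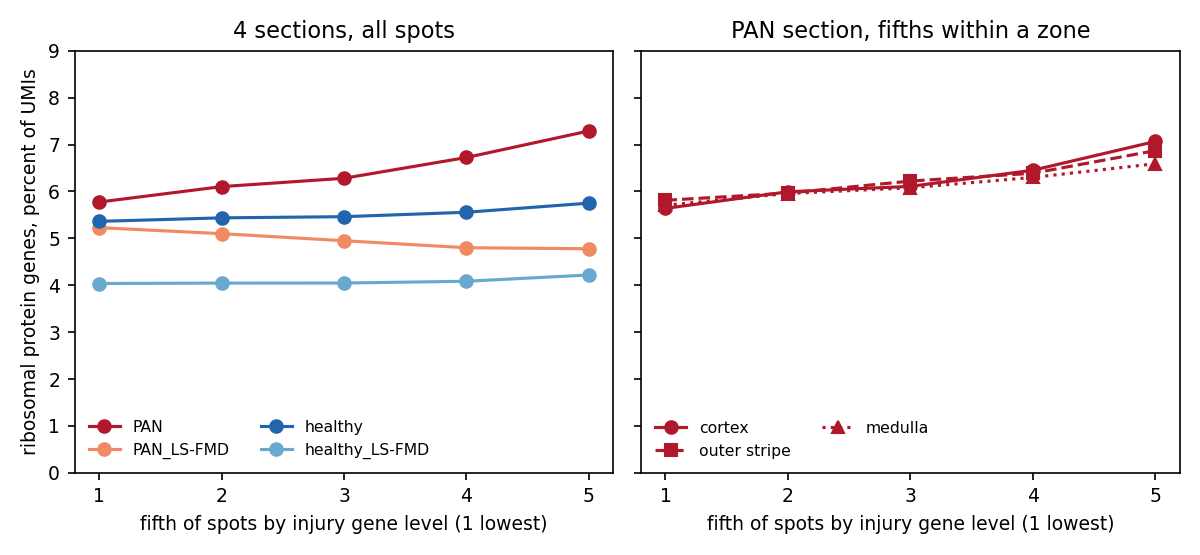
The percent of UMIs in ribosomal protein genes is plotted over 5 groups of spots ordered by injury gene level, on the left for all spots of the 4 sections and on the right for groups drawn within the cortex, outer stripe and medulla of PAN. In PAN it goes from 5.77 to 7.29%, in PAN_LS-FMD from 5.23 to 4.78%, and each PAN zone goes upward on its own, cortex from 5.64 to 7.07%.

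Single members shared the PAN pattern to different degrees. Of the 71 members with at least 2000 UMIs in PAN, 71 had a Spearman correlation with injury level above 0, against 66.0% of all 2579 such features outside the injury list. The member median was 0.17 and that of all features 0.02. In the highest group 70 members stood above the lowest group, against 53.1% of all features, with a median log2 ratio of 0.36 against 0.02. Of the factor lists read below, all 5 elongation factors and all 7 other TOP messages at that depth did likewise on both counts. Their median log2 ratios were 0.31 and 0.27, so the pattern was not particular to the members. The median was 0.16 for 17 initiation factors, -0.0155 for 5 biogenesis genes and -0.0150 for 6 mTORC1 pathway genes. The highest correlations were those of Rpl41 (0.29), Rps28 (0.28), Rps16 (0.26), Rpl37a (0.25) and Rplp0 (0.24), all well counted, and in sparse counts the correlation depends on how many UMIs a gene has. Rps28, of the small subunit, stood at 1193 CPM in the lowest and 1684 in the highest group, a ratio of 1.41 (1.36 to 1.46). Rplp0 stood at 1344 and 1773 CPM, a ratio of 1.32 (1.28 to 1.36). The lowest correlations were those of Rpl35al1 (0.03), Rps19bp1 (0.04), Rpl36al (0.05), Rpl22l1 (0.06) and Rpl18 (0.08). Rpl18, with 25626 UMIs in PAN, stood at 976 and 1079 CPM, a ratio of 1.11 (1.06 to 1.15). Rpl22l1 stood at 199 and 219 CPM (a ratio of 1.10), Rpl36al at 417 and 454 CPM (a ratio of 1.09), and Rps19bp1 at 96.7 and 91.8 CPM (a ratio of 0.95, 0.833 to 1.08).

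Other genes of the translation apparatus were read beside the members from lists of factors. The ribosome biogenesis list, whose products make and assemble ribosomes in the nucleolus, had 20 of 31 genes called higher and none lower in PAN over healthy, with a median log2 fold of 0.69, where 44.3% of all features were called higher with a median of 0.51. In PAN_LS-FMD over PAN 11 of 31 were lower and none higher, with a median of -0.52, a share at that of all features (35.5%, median -0.37). In healthy_LS-FMD over healthy 5 were higher and 1 lower, with a median of 0.28 beside 0.33 for all features. In that last comparison the biogenesis median and the member median (-0.38) lay on opposite sides of 0. Myc, a transcription factor that drives ribosome production, stood at 42.9 CPM in PAN, 11.8 in healthy, 11.8 in PAN_LS-FMD and 8.17 in healthy_LS-FMD, and Nop56, of the box C/D small nucleolar particles, at 64.6, 22.0, 30.3 and 36.8. For PAN over healthy Myc was 3.63-fold, Nop56 2.93-fold, Nop58 2.30-fold and Nhp2 2.28-fold higher.

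Of the 6 elongation factors, 1 was called higher in PAN over healthy, Eef1g (1.67-fold), with a median of 0.22. The same gene was the 1 called lower in PAN_LS-FMD over PAN (0.621-fold). Among all features 44.3% were called higher in the former comparison and 35.5% lower in the latter. Of 10 other messages with TOP tracts, 4 were called higher (Hnrnpa1 2.42-fold, Pabpc1 2.24-fold, Npm1 1.75-fold and Eif3f 1.54-fold) and Btf3 lower (0.534-fold) in PAN over healthy, with a median of 0.44, a share and a median no higher than those of all features (44.3% and 0.51). In healthy_LS-FMD over healthy their median was -0.07, that of the elongation factors -0.26 and that of the initiation factors 0.16. Of 21 measured initiation factors 3 were called higher in PAN over healthy (Eif4a1 1.56-fold, Eif3k and Eif4e both 1.51-fold) and none was called in the other comparisons. Eif5b stood 1.66-fold higher with an interval that includes 1 (0.941 to 2.88). Beside these counts, 44.3% of all features were called higher in PAN over healthy. The shares called higher and lower were 9.67% and 35.5% in PAN_LS-FMD over PAN and 6.80% and 4.53% in PAN_LS-FMD over healthy. In healthy_LS-FMD over healthy they were 27.1% and 5.27%. Of 19 genes of the mTORC1 and S6 kinase pathway 7 were called higher in PAN over healthy, with a median of 0.35, below the share and median of all features. They included Eif4ebp1, the translational repressor that mTORC1 inactivates (3.53-fold), and Tsc2, part of the complex that restrains mTORC1 (1.93-fold). Tsc1 (2.60-fold, 1.51 to 4.50) and Larp1, which binds TOP tracts (2.22-fold, 1.35 to 3.65), were also called but rest on 31 and 34 UMIs in PAN. Fau, which encodes a small-subunit protein fused to a ubiquitin-like one, was listed at 0.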

How the data were processed

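The authors deposited whole-number UMI counts per feature and spot from 10x Visium sections, and per the file headers these counts were made with Space Ranger 2.0.1 (healthy) or 1.2.1 (the other 3). The genome build and annotation are not given in the sources used here. Spots under 500 UMIs were left out (2 to 5 per section). Each section was clustered alone in scanpy 1.11.5 without the members (2000 variable genes, 30 principal components, 15 neighbours, Leiden resolution 1), and clusters were placed by marker lists, with the placing rule set after the clusters were seen. No doublet caller was used on spots. Some genes are not reported here.

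Counts were summed over spots and divided by all UMIs. A feature was called at 1.5-fold with an exact 95% interval of 2 Poisson counts excluding 1 and at least 20 UMIs, and a member departed at 1.5-fold from the median of members with at least 200 UMIs in both sections. Intervals (Clopper-Pearson for shares) cover counting error only. The call rule, but not the departure rule, was tested on simulated Poisson counts. These held no differences between animals, so the check says nothing of such differences. Named members were the 5 highest and 5 lowest departures per comparison, the 5 with most UMIs, paralogue pairs, Rplp0, Rplp2, Rpsa and Rps19bp1, the 5 highest and 5 lowest Spearman correlations in PAN, and up to 4 genes per factor list by fold. The members, lists and rules were chosen with earlier results of these data known. Alternatives concerned the denominator, the scaling, depth, spots and clustering.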

Additional observations from a re-analysis of the deposited data

Results flagged for a closer look

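Over all spots, the member share against injury level went opposite ways in the 2 injected kidneys, and the difference was not tested. The log2 ratio of the highest to the lowest of 5 groups of spots by injury level was 0.34 in PAN and -0.13 in PAN_LS-FMD. In PAN_LS-FMD cortical spots made up 22.1% of the lowest and 69.4% of the highest group, and within zones the Spearman correlation was near 0, at -0.08 in cortex, 0.00 in outer stripe and -0.04 in medulla. The minor Rpl21 identifier (ENSRNOG00000032803) also went opposite ways with the diet, at 0.529-fold in the injected and 2.13-fold in the uninjected kidneys, untested. The outer stripe stood at 0.994 of the cortex in PAN, and at 1.19 in healthy, 1.18 in PAN_LS-FMD and 1.17 in healthy_LS-FMD. For medulla over cortex the values were 0.978 in PAN, 1.19 in healthy, 1.15 in PAN_LS-FMD and 1.15 in healthy_LS-FMD, and neither difference was tested. Copies with -ps names, which no comparison of members used, held 0.0994% of UMIs in PAN, above the 0.0649% of healthy.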

How the results depend on the processing

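Comparisons are given in the order PAN over healthy, PAN_LS-FMD over PAN, PAN_LS-FMD over healthy and healthy_LS-FMD over healthy. The log2 ratios of member share (0.23, -0.37, -0.14 and -0.43) were 0.18, -0.37, -0.19 and -0.45 without mitochondrially encoded and haemoglobin UMIs, and 0.12, -0.31, -0.18 and -0.51 without the 20 most counted other features of any section. They were 0.19, -0.36, -0.18 and -0.48 as medians over spots, 0.17, -0.31, -0.14 and -0.47 as the mean of 3 zones, and 0.24, -0.40, -0.16 and -0.46 with spots thinned to 3000 UMIs. Median-of-ratios size factors gave -0.28, 0.013, -0.27 and -0.78, which turned the first and second, and the cause was not tested. Spots with a zone only, an alternative chosen after seeing the data, gave 0.18, -0.32 and -0.44 in the comparisons other than PAN_LS-FMD over healthy, whose value lay within its counting interval. A minimum of 2000 UMIs per spot moved none of them beyond its counting interval. The departing members (6, 5, 4 and 3) were 3, 3, 4 and 9 in cortical spots alone, 2, 0, 0 and 1 at 2-fold, and 3 in PAN_LS-FMD over PAN around the summed share. The share of all genes departing was not computed for these alternatives. The Spearman correlation over PAN spots (0.42) was 0.45 outside the injury list, 0.41 without Spp1, 0.31 with Havcr1 and Lcn2 only, 0.32 thinned to 3000 UMIs, 0.44 in cortex, 0.41 without mitochondrially encoded and haemoglobin UMIs, and 0.36 in spots with a zone only (chosen after seeing the data).

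Zone ratios kept their direction in all 29 alternative values obtained. When the 4 sections were clustered together, 7 zone ratios were not obtained, as almost no PAN spot got a zone and PAN_LS-FMD got no medulla. No paired analysis was possible because each group had 1 section and the labels carry no replicate numbers. Members with under 200 UMIs in a section are limited by depth.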
